A study of Homo sapiens with 4 samples.

Results

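The retinoid, vitamin D and peroxisome proliferator-activated receptors are a set of 10 nuclear receptor genes: RARA, RARB, RARG, RXRA, RXRB, RXRG, VDR, PPARA, PPARD and PPARG. Their rows were found by Ensembl identifier, without the version, and all 10 were present among the 58037 rows of the count table. Gene counts came from RNA-Seq of OCI-AML3, a human acute myeloid leukemia line that carries a heterozygous NPM1 mutation together with a heterozygous DNMT3A and a homozygous NRAS mutation, so that every library shares these alleles. Cells were transfected with a negative control guide (sgNeg, the study's sgRNA Ctrl, 2 libraries) or with sgNPM1A, a CRISPR guide designed against the mutant NPM1 allele (2 libraries), and were harvested 3 days, or 72 hours, later with no drug or receptor ligand named for either group. The cells were used as transfected and are not described as a clone, and the share of edited cells was not measured here. The question asked of these genes, raised by the study's interest in retinoids as a treatment of AML with mutant NPM1, was whether the mRNA of the receptors, their partners and their target genes differed after the mutant allele had been edited. The study reports lower RARA and RXRA protein after this editing, and less active chromatin at RARA at a later time than these libraries. Gene counts measure neither protein nor chromatin.

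These receptors are transcription factors that are switched by small fat-soluble ligands. RAR proteins bind all-trans retinoic acid, VDR binds the active form of vitamin D, PPAR proteins bind fatty acids and their derivatives, and each of them pairs with an RXR protein to bind DNA at repeats of a short core motif whose spacing helps to set which pair binds. Without ligand many of these pairs hold corepressors on their target genes, and ligand exchanges the corepressors for coactivators. In myeloid cells retinoic acid is known for granulocytic differentiation and vitamin D for monocytic differentiation, and PPAR proteins are known for lipid handling in macrophages.

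The sequences most telling for these genes are those at their own start sites, since RAR genes are themselves targets of retinoic acid and because the start-site windows of the 2 receptor genes that fell could be set side by side. RefSeq windows on GRCh38.p14, running from 250 bases before a gene's start to just past it, were found for 9 of the 10 genes, all but VDR. They were searched on both strands for direct repeats of the core motif AGGTCA, also allowing G as the first and T as the third base, with spacers of 1 to 5 bases (DR1 to DR5). The only direct repeat in any member's window was a DR5, the spacing classically bound by RAR with RXR, at a start site of RARB. The repeat begins 53 bases before the start. It is printed with its flanking bases, a stretch at chr3:25428200-25428236 on the plus strand, and with its core motifs in capitals. A DR5 was found in 0.0883% of the 35116 RefSeq windows (31 windows).
RARB DR5: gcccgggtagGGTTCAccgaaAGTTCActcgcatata

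RARG has 1 start-site window, at chr12:53232160-53232459 on the minus strand. PPARA has 2 overlapping windows on the plus strand, of which the first, at chr22:46150276-46150575, is printed. Both are shown with every copy of the GC box GGGCGG, or of its reverse complement, in capitals. The RARG window holds 5 copies and the first PPARA window 8, with overlapping copies counted separately, and GGGCGG was present in 45% of all RefSeq windows. Neither window holds a direct repeat of the core motifs searched or the letters TATAAA, which were present in 11.5% of all windows.
RARG start-site window: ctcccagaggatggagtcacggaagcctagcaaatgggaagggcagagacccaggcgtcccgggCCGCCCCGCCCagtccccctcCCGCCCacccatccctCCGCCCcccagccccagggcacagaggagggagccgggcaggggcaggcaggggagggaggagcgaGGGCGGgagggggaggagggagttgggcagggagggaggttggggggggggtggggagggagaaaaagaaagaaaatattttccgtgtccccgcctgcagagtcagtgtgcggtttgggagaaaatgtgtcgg
PPARA start-site window: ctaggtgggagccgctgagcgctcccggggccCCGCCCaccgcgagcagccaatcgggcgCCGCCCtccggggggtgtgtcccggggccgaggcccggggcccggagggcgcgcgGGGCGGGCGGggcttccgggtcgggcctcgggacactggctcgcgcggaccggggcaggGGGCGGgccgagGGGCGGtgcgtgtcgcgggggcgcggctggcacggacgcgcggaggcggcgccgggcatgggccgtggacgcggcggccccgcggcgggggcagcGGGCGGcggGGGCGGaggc

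Total counts lay between 25069484 and 28276391 per library, and 15718 genes passed the filter on low counts. Levels are given as CPM, counts scaled to library size with TMM factors, and a CPM between 0.108 and 0.118 stands for 3 counts. A gene was called when its adjusted p was below 0.05 and its log2 fold change was at least 0.32 in size, and 1653 genes were called higher and 1619 lower with sgNPM1A. NPM1 itself, summed over both alleles, lay at 1319 and 1385 CPM with sgNeg and at 1189 and 1132 CPM with sgNPM1A, and its log2 fold change, -0.22 (SE 0.07, adjusted p = 0.036), did not reach the size threshold. With limma-trend on quantile-normalized values NPM1 did reach it, at -0.42 (adjusted p = 0.00108). Gene counts cannot show whether the mutant allele was cut. The study itself reports marked falls of mutant and total NPM1 protein in these cells, seen from 3 days after the guide. The labelled line had its myeloid markers, with CD33 between 81.4 and 90.1 CPM and SPI1 between 452 and 676 CPM. Of 9 myeloid markers, 5 were called higher with sgNPM1A (LYZ, MPO, CSF3R, ITGAM and SPI1), or 55.6% called against 20.8% of all tested genes. CD33, CEBPA, PTPRC and CD14 were not called. The list's summed level was 1372 and 1352 CPM with sgNeg against 4115 and 4847 CPM with sgNPM1A. Within it LYZ alone was at 271 and 215 CPM against 2643 and 3367 CPM. Markers of other lineages summed to at most 2.13 CPM in any library, and 6 of the 9 in the table, CD3E, CD3D, MS4A1, HBB, ALB and EPCAM, were at 0 in every library. In bulk RNA fewer cells of a type and less RNA per cell cannot be told apart, and the part of the myeloid marker shift in the receptor changes was not tested.

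RARG and PPARA mRNA fell with sgNPM1A and VDR mRNA rose. Of the 10 receptor genes, 9 passed the filter on low counts and 3 of these were called, or 33.3%, where 20.8% of all tested genes were called. Called higher was 1 of the 9, with 10.5% of all tested genes called higher, and called lower were 2, with 10.3% of all tested genes called lower. The sgNeg and sgNPM1A libraries did not overlap for 7 of the 9, against 63.1% of all tested genes. The median log2 fold change was 0.01 over the 9 receptor genes and 0.00 over all tested genes. RARA, RXRA and PPARD, the most abundant gene of each subfamily per unit length, were not called.

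**Figure D1:**
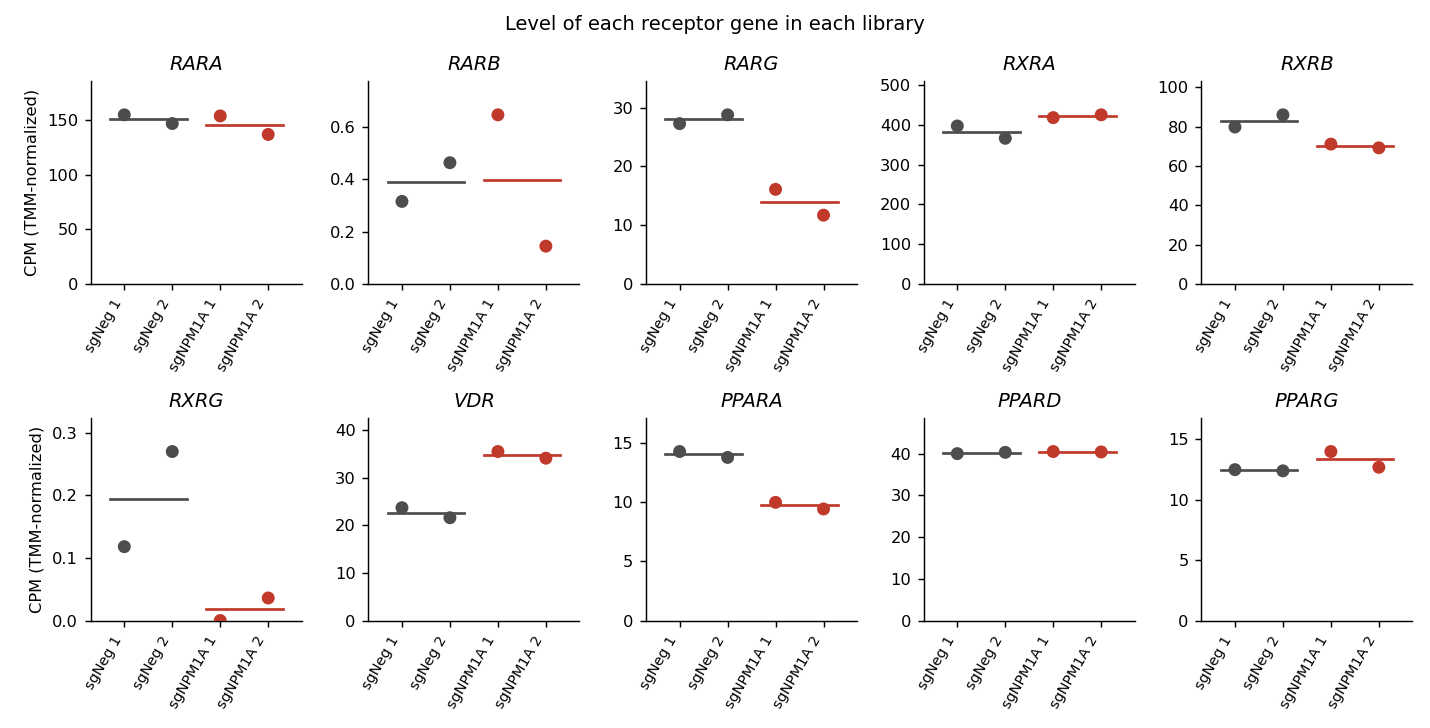
Level of each receptor gene in CPM (linear axes from 0, a separate scale for each gene) in the 2 sgNeg (grey) and 2 sgNPM1A (red) libraries, with a line at each group's mean. RARG and PPARA lie lower and VDR higher in both sgNPM1A libraries than in both sgNeg libraries, RARB and RXRG stay under 1 CPM throughout, and the libraries of RARA and RARB overlap between groups.

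Among the retinoic acid receptors, RARG showed the largest change of the 9 tested receptor genes, and it was a decline. RARG (ENSG00000172819, chr12:53210569-53232209) encodes a receptor prominent in skin and in immature hematopoietic cells. It was measured at 27.3 and 28.8 CPM with sgNeg and at 16.1 and 11.7 CPM with sgNPM1A. The 2 sgNPM1A libraries were the lower ones and also stood further apart from each other than the sgNeg libraries did. The means were 28.1 ± 1.06 and 13.9 ± 3.06 CPM (SD, n = 2), which gave a log2 fold change of -1.01 (SE 0.13, 95% CI -1.30 to -0.73, adjusted p = 0.000193), or 2.02-fold lower. Without sgNPM1A replicate 2, the lower library, the log2 fold change was -0.80, and without sgNPM1A replicate 1 it was -1.26.

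RARA (ENSG00000131759, chr17:40309180-40357643), the receptor through which retinoic acid drives granulocytic differentiation and the one fused to PML in acute promyelocytic leukemia, was not called. It lay at 155 and 147 CPM with sgNeg and at 154 and 137 CPM with sgNPM1A, and the groups overlapped. Its log2 fold change of -0.06 (SE 0.07, adjusted p = 0.622) had a 95% CI of -0.22 to 0.11, and it was 0.02 without sgNPM1A replicate 2. An antisense gene, RARA-AS1, overlaps 11.7% of the exon bases of RARA on the other strand, and its own row held between 1 and 8 counts. Whether the counting used strand is not given in the sources used here.

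RARB (ENSG00000077092, chr3:24829321-25597932), whose DR5 is printed above and which is a textbook retinoic acid response gene, was barely detected. Its raw counts were 8 and 12 with sgNeg and 18 and 4 with sgNPM1A, so that the highest and the lowest value both came from sgNPM1A libraries. The log2 fold change of 0.02 (SE 0.61, 95% CI -1.31 to 1.36, adjusted p = 0.987) turned negative under several settings, and no difference was detectable at this depth.

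The RXR proteins are the common partners of all the other receptors here, and neither of the 2 abundant RXR genes was called. RXRA (ENSG00000186350, chr9:134326455-134440585) lay at 397 and 366 CPM with sgNeg and at 418 and 425 CPM with sgNPM1A. Both sgNPM1A libraries were above both sgNeg libraries, with a log2 fold change of 0.14 (SE 0.07, 95% CI -0.01 to 0.29, adjusted p = 0.151). RXRB (ENSG00000204231, chr6:33193588-33200853), which is expressed in most tissues, moved the other way, from 79.8 and 86.0 CPM to 71.1 and 69.2 CPM. Its log2 fold change of -0.24 (SE 0.07, 95% CI -0.40 to -0.08) had an adjusted p = 0.032 but at 1.18-fold lower was under the size threshold. The adjusted p of RXRB was 0.0632 with DESeq2 and ran from 0.000124 to 0.11 over 9 alternatives of scaling, filter, tool and block. That of RXRA ran from 0.00688 to 0.375, and neither gene was called in any of them. SLC39A7, a zinc transporter gene on the other strand, overlaps 9.3% of the exon bases of RXRB and held between 3396 and 3850 counts.

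RXRG (ENSG00000143171, chr1:165400922-165445126), the RXR of muscle and brain, had 3 and 7 counts with sgNeg and 0 and 1 with sgNPM1A. It did not pass the filter and was not tested. The sgNeg values were the higher ones, but at 0.118 and 0.270 CPM they were at or close to the level of 3 counts.

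VDR (ENSG00000111424, chr12:47841537-47904994), the only receptor for the vitamin D hormone, was the 1 receptor gene that rose. It was measured at 23.7 and 21.6 CPM with sgNeg and at 35.5 and 34.1 CPM with sgNPM1A. Both sgNPM1A libraries lay well above both sgNeg libraries, and the spread within each group was small beside the distance between them. The means were 22.6 ± 1.48 and 34.8 ± 0.947 CPM (SD, n = 2), with 0.62 as the log2 fold change (SE 0.09, 95% CI 0.43 to 0.82, adjusted p = 0.000408), or 1.54-fold higher. The log2 fold change stayed between 0.56 and 0.69 whichever library was left out.

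Of the 3 PPAR genes, PPARA fell and the other two were not called. PPARA (ENSG00000186951, chr22:46150526-46243756), which governs fatty acid oxidation in liver and other tissues, was measured at 14.3 and 13.8 CPM with sgNeg and at 10.0 and 9.44 CPM with sgNPM1A. Both sgNPM1A libraries were below both sgNeg libraries. The means were 14.1 ± 0.323 and 9.74 ± 0.431 CPM (SD, n = 2), with -0.53 as the log2 fold change (SE 0.11, 95% CI -0.78 to -0.28, adjusted p = 0.00529), or 1.44-fold lower. With a single library left out the call was kept each time, with adjusted p values from 0.0111 to 0.0467.

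PPARD (ENSG00000112033, chr6:35342558-35428178), the most widely expressed PPAR gene, was the steadiest receptor gene. It lay at 40.0 and 40.3 CPM with sgNeg and at 40.5 and 40.4 CPM with sgNPM1A. The log2 fold change was 0.01 (SE 0.08, 95% CI -0.16 to 0.18, adjusted p = 0.943), and it became -0.03 when only library size was used for scaling. PPARG (ENSG00000132170, chr3:12287368-12434344), the regulator of adipocyte formation that also acts in macrophages, lay at 12.5 and 12.4 CPM with sgNeg and at 14.0 and 12.7 CPM with sgNPM1A. The sgNPM1A values were the higher ones by a small margin, with a log2 fold change of 0.10 (SE 0.11, 95% CI -0.14 to 0.35, adjusted p = 0.549).

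**Figure D2:**
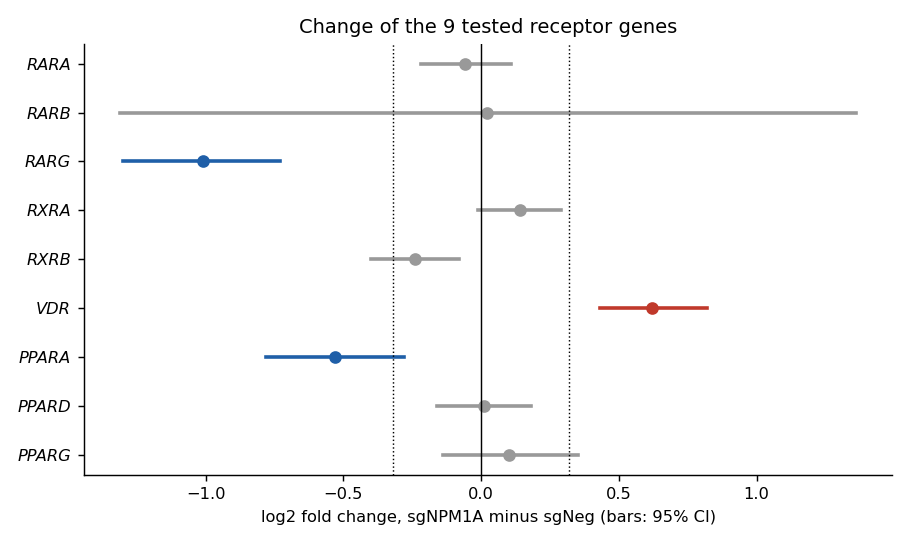
Log2 fold change (sgNPM1A minus sgNeg, x axis) of the 9 tested receptor genes with 95% confidence intervals, called lower in blue, called higher in red and not called in grey, with dotted lines at the size threshold of 0.32. RARG at -1.01 and PPARA at -0.53 lie below the lower line, VDR at 0.62 lies above the upper line, and the interval of RARB runs from -1.31 to 1.36.

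Levels between genes were compared per unit length, as CPM per kilobase of exon (RPKM) on the TMM scale. Each subfamily was dominated by 1 or 2 genes. RARA made up 85.9% and 84.6% of RAR mRNA in the sgNeg libraries and 91.0% and 92.6% in the sgNPM1A libraries, while RARG went from 14.0% and 15.3% to 8.80% and 7.32%. The ratio of RARA to RARG therefore moved from 5.84 ± 0.438 to 11.5 ± 1.64 (SD, n = 2). RXRA made up 59.7% ± 2.69 of RXR mRNA with sgNeg and 66.0% ± 0.675 with sgNPM1A (SD, n = 2), nearly all of the rest being RXRB. PPARD held 81.1% ± 0.287 and 83.1% ± 0.814 of PPAR mRNA, PPARA 9.56% ± 0.244 and 6.74% ± 0.221, and PPARG 9.35% ± 0.043 and 10.2% ± 0.593 (SD, n = 2). With 2 libraries in each group no exact permutation test of a share can give a two-sided p below 0.333. The shares also depend on the length assigned to each gene: with the longest transcript in place of all exon bases, RXRA made up 69.6% and 75% of RXR mRNA.

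**Figure D3:**
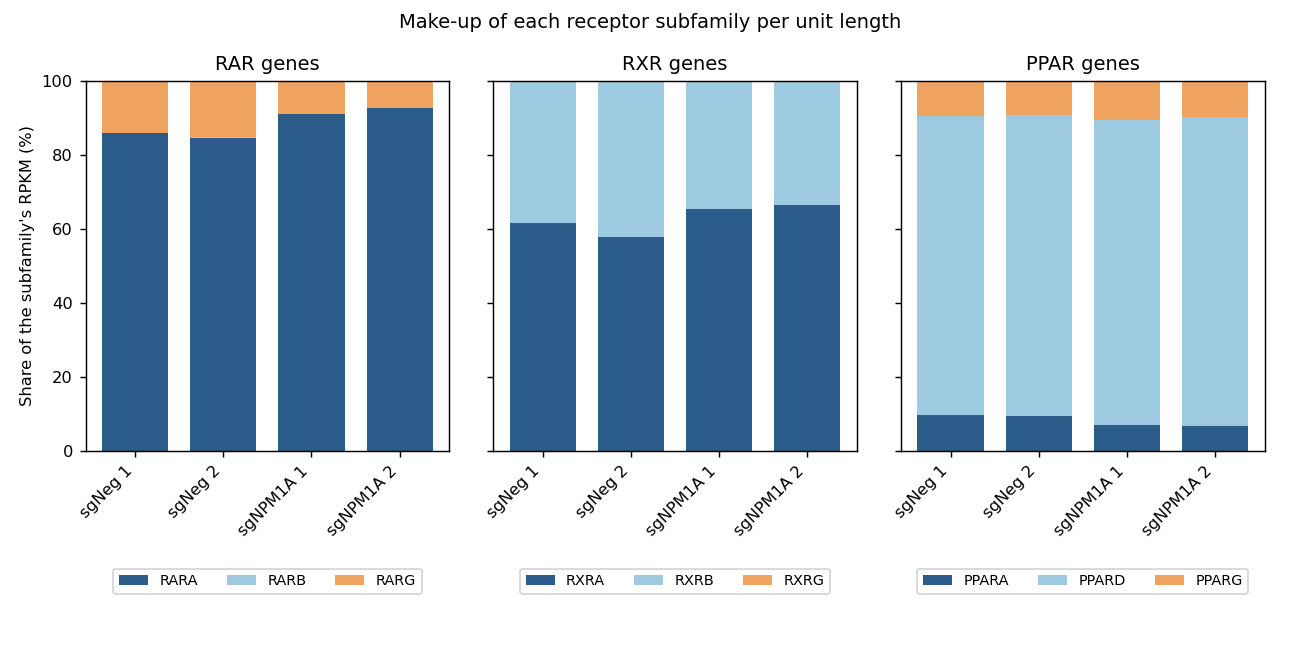
Share of each subfamily's summed RPKM (%, y axis) held by each of its genes in the 2 sgNeg and 2 sgNPM1A libraries. RARA, RXRA and PPARD are the largest shares throughout, and the RARG share falls from 14.0% and 15.3% to 8.80% and 7.32%.

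Summed per unit length, RXR mRNA was 53.4 and 52.5 RPKM with sgNeg and 52.9 RPKM in both sgNPM1A libraries. RAR mRNA was 38.1 and 36.8 against 35.6 and 31.3 RPKM, PPAR mRNA 11.1 in both sgNeg libraries against 11 and 10.8 RPKM, and VDR mRNA 4.17 and 3.80 against 6.25 and 6.02 RPKM. RXR mRNA over the sum of the RAR, VDR and PPAR partners was thus 1.01 ± 0.0113 with sgNeg and 1.05 ± 0.0709 with sgNPM1A (SD, n = 2), and the groups overlapped.

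Among all 48 nuclear receptor genes, the receptors described here ran from the first place to places below the middle of the order. With sgNeg, RARA (31.1 and 32.8 RPKM) and RXRA (30.3 and 32.9 RPKM) stood first and second and could not be separated beyond their spread. With sgNPM1A, RXRA (34.6 and 35.2 RPKM) stood above RARA (29.0 and 32.4 RPKM) in both libraries. RXRB was in place 4 with sgNeg and 5 with sgNPM1A, and its sgNeg range of 20.5 to 22.1 RPKM overlapped that of NR2F6 in place 3. PPARD kept place 9. RARG moved from place 11 to 14 and VDR from 13 to 10, so that VDR, at 3.99 RPKM, stood below RARG, at 5.48 RPKM, with sgNeg and above it, at 6.14 against 2.71 RPKM, with sgNPM1A. PPARA and PPARG were next to each other in places 17 and 18 with sgNeg, at 1.06 and 1.04 RPKM, and lay at 0.737 and 1.12 RPKM with sgNPM1A. RARB and RXRG were below 0.11 RPKM in every library. These places and overlaps rest on all exon bases as the length of each gene. The order was not recomputed with the longest transcript, so places of genes with close levels may depend on that choice.

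**Figure D4:**
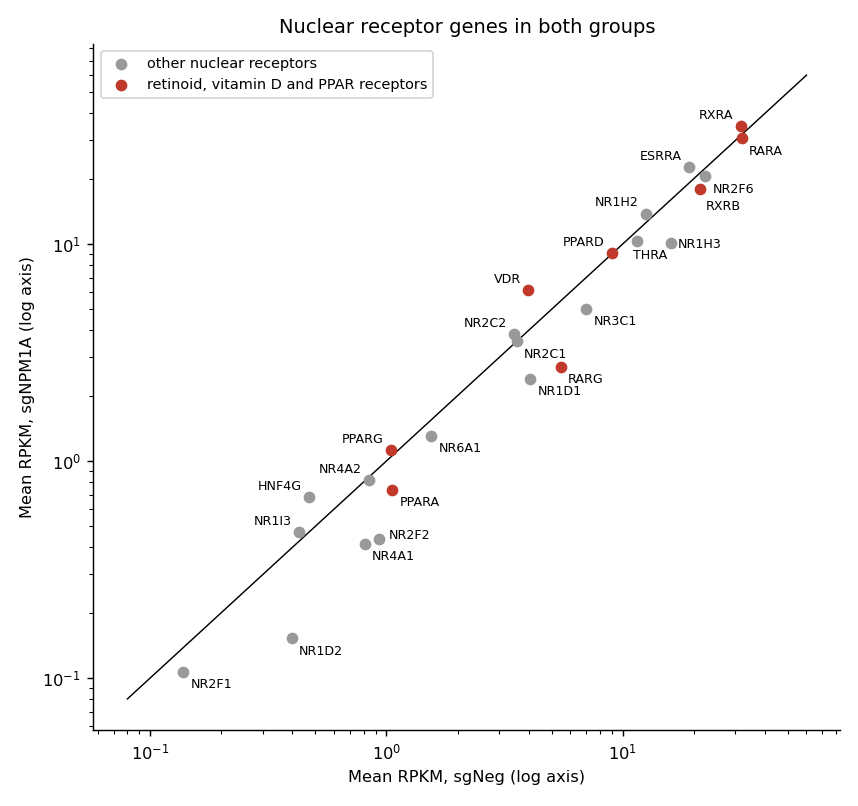
Mean RPKM with sgNeg (x) and with sgNPM1A (y), both on log axes, for nuclear receptor genes above 0.1 RPKM in both groups, with the receptors described here in red, the other nuclear receptors in grey and a line of equal level. RARA and RXRA lie at the top near the line, VDR above the line, and RARG and PPARA below it.

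The other nuclear receptors were read beside these genes as a list of 38, of which 17 were tested and 17 had 3 counts or fewer in every library. Of the 17 tested, 6 were called lower and 0 higher with sgNPM1A, or 35.3% called where 20.8% of all tested genes were, and their median log2 fold change was -0.16. The 0 called higher became 1 without sgNPM1A replicate 2, was 1 in edgeR with an unadjusted p under 0.05, and was 0 in DESeq2. NR1H3, the oxysterol receptor LXR alpha and an RXR partner, was lower at 48.6 and 43.1 CPM against 68.2 and 77.0 CPM (log2 fold change -0.66, adjusted p = 0.000263). NR4A1, an immediate early receptor that can also pair with RXR, was lower at 3.59 and 2.49 CPM against 5.90 and 5.91 CPM (log2 fold change -0.96, adjusted p = 0.00336). The glucocorticoid receptor NR3C1 (log2 fold change -0.49, adjusted p = 0.00078), the orphan receptor NR2F2 (-1.09, adjusted p = 0.00108) and the heme-binding clock repressors NR1D1 (-0.76, adjusted p = 0.00254) and NR1D2 (-1.38, adjusted p = 0.00437) made up the rest of the 6. The RXR partners NR1H2, or LXR beta (log2 fold change 0.14, adjusted p = 0.166), and THRA, a thyroid hormone receptor (-0.16, adjusted p = 0.207), were not called.

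Coregulators, the proteins that receptors recruit with or without ligand, included 24 tested genes, of which 2 were called higher and 0 lower (8.33% called, against 20.8% of all tested genes), with a median log2 fold change of 0.07. The 0 called lower was also 0 in DESeq2 and in edgeR with an unadjusted p under 0.05, but 1 with library size only or upper quartile scaling and 2 with no size threshold. Without sgNeg replicate 1 the number called higher was 4, and without sgNeg replicate 2 the number called lower was 4. TBL1X, a subunit of the corepressor complex of NCOR1, rose from 5.66 and 4.90 CPM to 11.4 and 12.2 CPM (log2 fold change 1.16, SE 0.13, adjusted p = 8.51e-05). NCOA4, named as a coactivator and better known as the cargo receptor for ferritin, rose from 369 and 305 CPM to 467 and 511 CPM (log2 fold change 0.54, SE 0.09, adjusted p = 0.00125). The corepressor NCOR1 was not called (log2 fold change 0.06, adjusted p = 0.581), and neither were the coactivators NCOA1 (0.14, adjusted p = 0.363), NCOA2 (0.18, adjusted p = 0.428) and NCOA3 (0.08, adjusted p = 0.685). The signs of NCOR1, NCOA2 and NCOA3 changed when a single library was left out.

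Of 12 tested genes in a list of 19 that supply retinoic acid or clear it, 2 were called higher and 2 lower. This was 33.3% called against 20.8% of all tested genes, with a median log2 fold change of 0.11. STRA6, the membrane receptor for retinol uptake, fell from 0.905 and 1.00 CPM to 0.0718 and 0.144 CPM (log2 fold change -3.09, SE 0.49, adjusted p = 0.000776). RBP4, the retinol carrier that STRA6 binds, was higher at 1.72 and 1.51 CPM against 1.02 and 0.656 CPM (log2 fold change 0.94, adjusted p = 0.0352). The retinaldehyde dehydrogenases, which make retinoic acid, were called in opposite directions, ALDH1A1 at 2.32 and 1.89 CPM against 5.35 and 4.39 CPM with sgNPM1A (log2 fold change 1.21, SE 0.20, adjusted p = 0.00096) and ALDH1A3 at 0.551 and 0.695 CPM against 0.108 and 0.144 CPM (-2.27, adjusted p = 0.00754). All 4 were low, under 6 CPM in every library. CYP26A1, the enzyme that degrades retinoic acid and one of the most responsive retinoic acid targets, had 0 counts in every library, and it also holds a DR5 in its start-site window, 90 bases before the start. With DESeq2 the adjusted p was 0.182 for RBP4 and 0.0653 for ALDH1A3. RBP4 was not called without sgNeg replicate 2 (log2 fold change 0.66), sgNPM1A replicate 1 (0.85) or sgNPM1A replicate 2 (1.04), and ALDH1A3 not without sgNeg replicate 2 (-2.09) or sgNPM1A replicate 1 (-2.07), which took the counts of called genes to 1 in either direction.

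Retinoic acid target genes also split, with 4 of 15 tested genes called higher and 4 lower. This was 53.3% called against 20.8% of all tested genes, and the median log2 fold change was 0.13. PRAM1, a neutrophil adaptor induced by retinoic acid in promyelocytic leukemia cells, rose from 9.01 and 8.57 CPM to 45.3 and 46.6 CPM (log2 fold change 2.39, SE 0.09, adjusted p = 4.67e-08). ITGAM, which encodes CD11b and is also in the myeloid marker list, rose from 0.747 and 0.811 CPM to 3.52 and 4.36 CPM (2.33, SE 0.24, adjusted p = 3.74e-05). The ectoenzyme gene CD38 rose from 22.7 and 20.2 CPM to 33.8 and 35 CPM (0.68, SE 0.09, adjusted p = 0.00027), and CEBPE, a transcription factor of late granulocytes, was higher at 0.538 and 0.612 CPM against 0.236 and 0.154 CPM (1.54, adjusted p = 0.0354). The lower genes were STRA6, HIC1, a transcriptional repressor, at 2.48 and 1.66 CPM against 3.93 and 4.59 CPM (-1.04, adjusted p = 0.00467), ID1, an inhibitor of helix-loop-helix factors, at 43.5 and 40.0 CPM against 54.1 and 57.1 CPM (-0.41, adjusted p = 0.0033), and PLAAT4, a phospholipase gene, at 0.0359 and 0.216 CPM against 0.393 and 0.656 CPM (-2.02, adjusted p = 0.0408). CEBPE was not called with any library left out (1.27 to 1.87) or with DESeq2 (adjusted p = 0.234). PLAAT4 was not called without sgNeg replicate 1 (-2.34), sgNeg replicate 2 (-1.61) or sgNPM1A replicate 1 (-1.26) or with DESeq2 (adjusted p = 0.161), and ID1 not without sgNPM1A replicate 2 (-0.35).

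Vitamin D target genes were divided in the same manner, with 3 of 10 tested genes called higher and 3 lower. This was 60% called against 20.8% of all tested genes, and the median log2 fold change was 0.10. FBP1, a gluconeogenic enzyme induced by vitamin D in leukemia cells, rose from 24.4 and 26.3 CPM to 88.1 and 87.7 CPM (log2 fold change 1.79, SE 0.08, adjusted p = 8.75e-08). SPP1, which encodes osteopontin, was higher at 0.538 and 0.756 CPM against 0.157 and 0.154 CPM (2.02, adjusted p = 0.0117), and SEMA6B, a semaphorin gene, at 23.2 and 24.6 CPM against 18.2 and 18.5 CPM (0.38, adjusted p = 0.0117). Thrombomodulin, THBD, an anticoagulant receptor, fell from 193 and 174 CPM to 107 and 112 CPM (-0.75, SE 0.07, adjusted p = 2.27e-05). G0S2, an inhibitor of triglyceride breakdown, fell from 56.8 and 62.3 CPM to 36.0 and 31.0 CPM (-0.83, adjusted p = 6.59e-05), and the growth factor gene HBEGF fell from 21.8 and 25.3 CPM to 15.8 and 13.1 CPM (-0.71, adjusted p = 0.00128). NINJ1 (0.32, adjusted p = 0.0117) lay just under the unrounded size threshold and was not called. CYP24A1, which degrades vitamin D and is the most direct readout of VDR activity, had 0 counts in every library. The number called higher was 5 without sgNPM1A replicate 1 and 1 without sgNPM1A replicate 2. SPP1 was not called without sgNeg replicate 1 (2.03), sgNeg replicate 2 (2.01) or sgNPM1A replicate 2 (1.76) or with DESeq2 (adjusted p = 0.0929), and SEMA6B not without sgNPM1A replicate 2 (0.34).

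Only 3 of 7 genes of vitamin D supply and clearance were tested, and 1 was called. This was 33.3% called against 20.8% of all tested genes, with a median log2 fold change of 0.56. CYP2R1, which carries out the first hydroxylation of vitamin D, was called higher at 14.1 and 12.2 CPM against 7.91 and 9.88 CPM (log2 fold change 0.56, SE 0.14, adjusted p = 0.0117). It was not called without sgNeg replicate 1 (0.41) or without sgNPM1A replicate 1 (0.46). CYP27B1, which makes the active hormone, was not called (-0.12, adjusted p = 0.676).

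PPAR target genes were called higher more often than lower, 7 against 2 of 23 tested genes in a list of 32. This was 39.1% called against 20.8% of all tested genes, with a median log2 fold change of 0.09. LPL, the lipase that frees fatty acids from lipoproteins, rose from 3.93 and 2.63 CPM to 25.8 and 35.8 CPM (log2 fold change 3.23, SE 0.20, adjusted p = 7.66e-07). The fatty acid transporter gene CD36 rose from 103 and 95.2 CPM to 162 and 187 CPM (0.82, SE 0.08, adjusted p = 2.74e-05). UCP2, a mitochondrial carrier, rose from 43.0 and 43.5 CPM to 80.1 and 83.4 CPM (0.92, SE 0.07, adjusted p = 5.06e-06), and ABCA1, a cholesterol exporter that LXR and PPAR proteins both regulate, rose from 5.94 and 5.64 CPM to 12.1 and 15.3 CPM (1.24, SE 0.15, adjusted p = 9.29e-05). ACADM, of medium-chain fatty acid oxidation (0.61, adjusted p = 0.000512), and the desaturase genes SCD (0.46, adjusted p = 0.0121) and FADS2 (0.38, adjusted p = 0.032) were also called higher. CPT1A, the entry step of mitochondrial fatty acid oxidation, was lower at 11.9 and 12.6 CPM against 17.5 and 14.7 CPM (-0.39, adjusted p = 0.0294), and TXNIP, a thioredoxin-binding protein, was lower at 83.4 and 87.0 CPM against 117 and 103 CPM (-0.37, adjusted p = 0.0057). ADIPOQ, the adipocyte hormone adiponectin and a marker of PPARG activity in fat, had 0 counts in every library.

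Of these 9 calls, 4 were lost when a library was left out. SCD (0.26) and FADS2 (0.18) were not called without sgNeg replicate 2, FADS2 (0.31) also not without sgNPM1A replicate 2, and neither was called with DESeq2 (adjusted p = 0.144 and 0.271). CPT1A was not called without sgNeg replicate 1 (-0.27), sgNPM1A replicate 1 (-0.35) or sgNPM1A replicate 2 (-0.43) or with DESeq2 (adjusted p = 0.0719), and TXNIP not without sgNeg replicate 1 (-0.27) or sgNPM1A replicate 1 (-0.33), so that the number called lower was 0 without either of the replicates numbered 1.

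**Figure D5:**
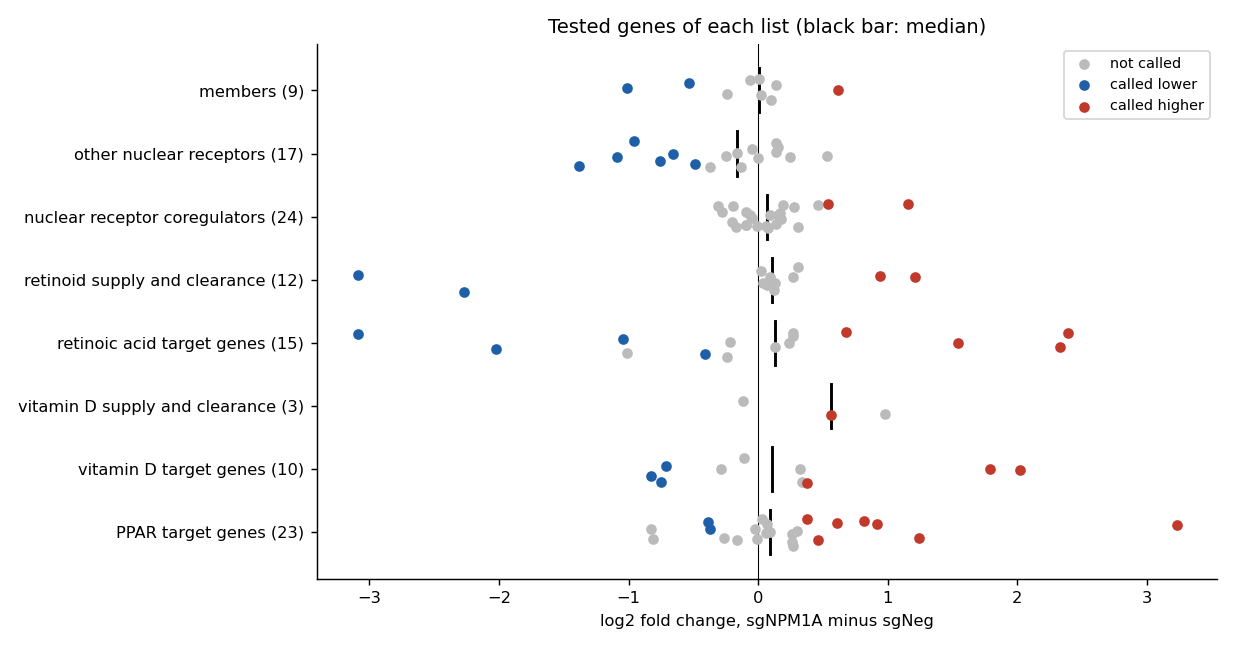
Log2 fold change (sgNPM1A minus sgNeg, x axis) of each tested gene, by list, called higher in red, called lower in blue and not called in grey, with a black bar at the list's median and the number of tested genes in brackets (the row "members" holds the receptor genes described here; vertical scatter within a row carries no value). The retinoic acid and vitamin D target lists spread to both sides, from -3.09 for STRA6 to 2.39 for PRAM1 in the former, while the coregulators lie nearer to 0, with TBL1X at 1.16 and NCOA4 at 0.54 called higher.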

How the data were processed

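RNA-Seq of OCI-AML3 cells gave 4 libraries, 2 with sgNeg and 2 with sgNPM1A, grouped as the labels give them. The study calls them biological replicates, and whether same-numbered libraries share a culture is not stated. Reads were aligned by the authors to hg38 with STAR, and the deposited values are raw read counts for each Ensembl gene. The counting program, its strand setting and the annotation release are not given in the sources used here. Symbols were found by identifier for 55606 of the 58037 rows.

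edgeR 4.0.16 in R 4.3.3 (filterByExpr with its minimum count of 10, TMM, robust quasi-likelihood F test, two-sided) was run on all genes, with Benjamini-Hochberg adjustment over 15718 genes, and was tested on simulated data. Calls required an adjusted p below 0.05 and a fold change of at least 1.25 in either direction, the study's fold threshold. On the log2 scale this is 0.32 when rounded. The study reports fewer changed genes in either direction than the 1653 higher and 1619 lower called here. DESeq2 at the same thresholds called 1267 higher and 1242 lower. A prior count of 2 entered only the log values used for limma-trend and for the correlations of deviations. The edgeR fold changes of low genes were not damped by it. Exon lengths for RPKM came from GENCODE models lifted to GRCh37. Gene positions and start-site sequences are RefSeq's on GRCh38.p14.

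The receptor genes and gene lists were chosen with earlier results of these data known. Named were all 10 receptor genes, called genes of each list (at most the 4 with the smallest adjusted p in each direction), NPM1, direct partners and coregulators whatever their result, and pathway-defining genes without counts. NR1D2, ACADM, SCD and FADS2 fell outside this rule and were named after their values were seen, to complete their lists' counts. CYP27B1 and NINJ1, neither of them called, were also named outside the rule. Values of 1 coregulator gene are not reported here. DESeq2 1.42.0, limma 3.58.1, other scalings and filters, a replicate block and leaving out each library were tried as alternatives.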

Additional observations from a re-analysis of the deposited data

How the results depend on the processing

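The calls of RARG (log2 fold change -1.05 to -1.01), VDR (0.58 to 0.62) and PPARA (-0.57 to -0.52) were kept in each of 9 alternatives of scaling, filter, tool and block, and with each library left out, where RARG ran from -1.26 to -0.80, VDR from 0.56 to 0.69 and PPARA from -0.57 to -0.48. Requiring a fold change of at least 2 left 498 genes higher and 502 lower, with 0 and 1 of the receptor genes among them, because the threshold itself was raised. With the longest transcript as length, RARG made up 17.2% and 9.61% of RAR mRNA and RXRA 69.6% and 75% of RXR mRNA in sgNeg and sgNPM1A. Signs turned only in genes that were not called. RARB became -0.20 with limma-trend, -0.02 with library size only, -0.04 with the replicate block, -0.01 with the crossed block and -1.40 to 0.73 with a library left out, PPARD -0.03 with library size only, and, with a library left out, RARA ran from -0.14 to 0.02, NCOR1 from -0.00 to 0.12, NCOA2 from -0.02 to 0.40 and NCOA3 from -0.11 to 0.29. Leaving out a library leaves an arm with a lone library that is assumed to vary like the other group. The cause of these shifts was not tested beyond the construction of each setting.

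Same-numbered libraries did not deviate together (correlation of deviations -0.13 over all tested genes and -0.52 over the 8856 with a mean CPM above 10), so the numbers were not taken as pairs. In a group of 2 libraries the deviations mirror each other. Opposite-numbered libraries therefore did deviate together, with the same correlations of the other sign. With a replicate block 1637 genes were called higher and 1604 lower, with the same 1 and 2 receptor genes, and the adjusted p of RXRB was 0.11. A crossed pairing, added after the data were seen, called 1955 higher and 1918 lower, again with 1 and 2 receptor genes. In edgeR with this pairing the adjusted p was 0.00688 for RXRA, 0.000124 for RXRB and 1.19e-05 for NPM1. None of these genes reached the size threshold with it. At 0 to 18 counts RARB and RXRG were measured with little precision, the 95% CI of RARB running from -1.31 to 1.36.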

Other observations

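The genes next to the 3 called receptor genes, 3 nearest tested protein-coding genes on each side, were read after the receptor values had been seen. Of these 18 genes 5 were called, or 27.8%, beside 20.8% of all tested genes. ITGB7, an integrin gene that lies 3318 bases from RARG, was called higher with a log2 fold change of 1.20 (SE 0.20, adjusted p = 0.00103), while RARG fell by 1.01 on the log2 scale. ESPL1, the separase gene on the other side of RARG, was called lower (-0.33, adjusted p = 0.00956). Beside VDR, the class II histone deacetylase gene HDAC7 was lower (-0.38, adjusted p = 0.00263) and the heme transporter gene SLC48A1 was higher (0.41, adjusted p = 0.0288). Beside PPARA, the ligand gene WNT7B was lower (-0.91, adjusted p = 2.27e-05), while CDPF1, which lies 257 bases from PPARA, was not called (-0.28, adjusted p = 0.109).

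Neither RXRA nor RXRB was called, and the ratio of RXRA to RXRB per unit length, which was not tested, was 1.61 and 1.37 with sgNeg and 1.90 and 1.98 with sgNPM1A. The ratio of PPARD to PPARA per unit length was 8.31 and 8.66 with sgNeg and 12.0 and 12.7 with sgNPM1A.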
